A study of Mus musculus with 3 samples.

Results

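The 8 genes of the suppressor of cytokine signalling (SOCS) family, Socs1 to Socs7 and Cish, were examined in RNA sequenced from mouse cornea. They were taken by symbol from a table of gene counts, and all 8 were among its 21760 genes. There were 3 libraries, 1 per group. In the PNU-282987 group, drops of PNU-282987, a compound that activates α7 nicotinic acetylcholine receptors, were put on the eye 3 times a day. The excision group had its lacrimal gland, the source of the watery tear layer, surgically removed to give a dry eye. The sham group was cut at the corresponding place with its glands left alone. Strain, age and sex are not in the labels, nor is the number of corneas behind a library, and whether the PNU-282987 mice had also been operated on is not stated. The study asked how the α7 receptor acts in dry eye disease.

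SOCS proteins are feedback inhibitors of cytokine signalling. A cytokine receptor activates its JAK kinases, these phosphorylate STAT transcription factors, and the STATs switch on SOCS genes, whose products then bind the kinase or the receptor through an SH2 domain and, through the SOCS box, recruit elongin B, elongin C and cullin 5 to mark it for degradation. SOCS1 is best known for restraining interferon signalling, SOCS3 for restraining receptors that use the gp130 chain, and SOCS2 and CIS (the product of Cish) for restraining growth hormone and other STAT5-activating receptors. SOCS4 to SOCS7 are less studied and have been tied to the EGF receptor, KIT and insulin signalling. In the eye, SOCS1 and SOCS3 have been studied as limits on inflammation.

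The start regions of the 3 members best known as rapid STAT targets are shown because they carry the kinds of letters that STAT complexes read. A promoter was available for 4 of the 8 members (Socs1, Socs3, Socs4 and Cish) from RefSeq on GRCm38.p6. Each was searched on both strands for TTCNNNGAA, which reads the same on either strand and is the core bound by STAT dimers, and for GAAANNGAAA, the repeat found in interferon-stimulated response elements. Capitals mark every match. Socs1 lies at chr16:10785537-10785786 (minus strand), Socs3 at chr11:117969367-117969616 (minus strand) and Cish at chr9:107296409-107296678 (plus strand), each running 5′ to 3′ from 250 bases before the annotated start, with 20 bases past the start for Cish.
Socs1: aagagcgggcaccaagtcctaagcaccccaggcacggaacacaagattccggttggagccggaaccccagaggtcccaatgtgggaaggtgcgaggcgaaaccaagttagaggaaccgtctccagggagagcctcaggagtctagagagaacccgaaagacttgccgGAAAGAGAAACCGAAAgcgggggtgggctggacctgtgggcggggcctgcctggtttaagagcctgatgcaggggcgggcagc
Socs3: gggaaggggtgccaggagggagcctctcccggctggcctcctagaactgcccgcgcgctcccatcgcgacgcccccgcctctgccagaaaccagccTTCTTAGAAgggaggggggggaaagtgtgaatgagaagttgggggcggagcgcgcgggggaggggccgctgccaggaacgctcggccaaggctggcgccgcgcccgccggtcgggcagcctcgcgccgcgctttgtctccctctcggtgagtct
Cish: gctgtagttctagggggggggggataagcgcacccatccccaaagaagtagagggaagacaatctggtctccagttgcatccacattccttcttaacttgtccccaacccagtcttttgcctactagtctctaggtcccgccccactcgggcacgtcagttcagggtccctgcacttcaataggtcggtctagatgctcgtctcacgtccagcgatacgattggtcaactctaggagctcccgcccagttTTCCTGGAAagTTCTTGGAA
Socs1 held 2 overlapping matches to GAAANNGAAA and 0 to TTCNNNGAA. Socs3 held 1 match to TTCNNNGAA, beginning 154 bases before the start, and Cish held 2, both just past its annotated start. Of 32851 promoter windows of 300 bases in the RefSeq table, 8.30% held TTCNNNGAA and 3.44% held GAAANNGAAA, so that a match is a description of letters and not of a bound site. Socs4 held neither in its window.

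Total counts were 39616004 for PNU-282987, 37692972 for excision and 37703843 for sham. Levels are given as CPM, the counts scaled to library size with TMM factors, and the 14180 genes that reached 20 counts in any library were treated as measured. With 1 library per group the spread between animals is unknown. There is therefore no test, every comparison is between libraries, and the 95% intervals cover counting error only. A gene was called higher or lower when the ratio of scaled counts was at least 2-fold and its counting interval excluded 1. A gene that reached the count minimum in 1 library only was measured because of its high count there, which favours a call in that direction. This holds for some members of the gene lists below, not all of which are named. Of the markers of the labelled tissue, the epithelial gene Krt12, a cornea-specific keratin, was at 42092 CPM in PNU-282987, 30579 CPM in excision and 39479 CPM in sham, and the stromal proteoglycan gene Dcn at 460 CPM, 421 CPM and 664 CPM in the same order. Transcripts of other tissues were also present and differed between libraries, with summed lens markers at 803 CPM, 171 CPM and 891 CPM and summed conjunctiva and gland markers at 5881 CPM, 3818 CPM and 2281 CPM. In such bulk tissue, fewer cells of a type and less RNA per cell cannot be told apart.

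The family split into 5 well-expressed members and 3 scarce ones. Together the 8 genes had 5582 counts in PNU-282987, 5418 in excision and 5150 in sham. Socs1, Socs2 and Socs3 made up only 3.502 CPM of a family sum of 144 CPM in PNU-282987, 5.63 of 146 CPM in excision and 4.99 of 132 CPM in sham. Per kilobase of exon (GENCODE M21 lengths, which may differ from the models the authors counted on), Cish was highest in every library, at 7.11 CPM per kb in PNU-282987, 8.22 in excision and 6.82 in sham. Socs7, Socs6, Socs5 and Socs4 followed in that order in all 3 libraries. Each of these was above the next beyond counting error, except Socs5 over Socs4 in excision (ratio 1.06, interval 0.946 to 1.19).

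The order of the scarce members was not the same in each library. In PNU-282987 the per-length order was Socs2 (0.764 CPM per kb), Socs1 (0.381) and Socs3 (0.131), each step beyond counting error. In excision Socs1 (1.31 CPM per kb) stood 3.35-fold above Socs2 (0.389; interval of the ratio 2.34 to 4.91), and Socs2 and Socs3 (0.306) were not separated (1.27, 0.767 to 2.13). In sham Socs2 (0.750 CPM per kb), Socs1 (0.581) and Socs3 (0.502) could not be separated from their neighbours (1.29, 0.919 to 1.82, and 1.16, 0.790 to 1.71). Socs3 thus ranked last of the 8 in all 3 libraries, beyond counting error in PNU-282987 but not in excision or sham.

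**Figure D1:**
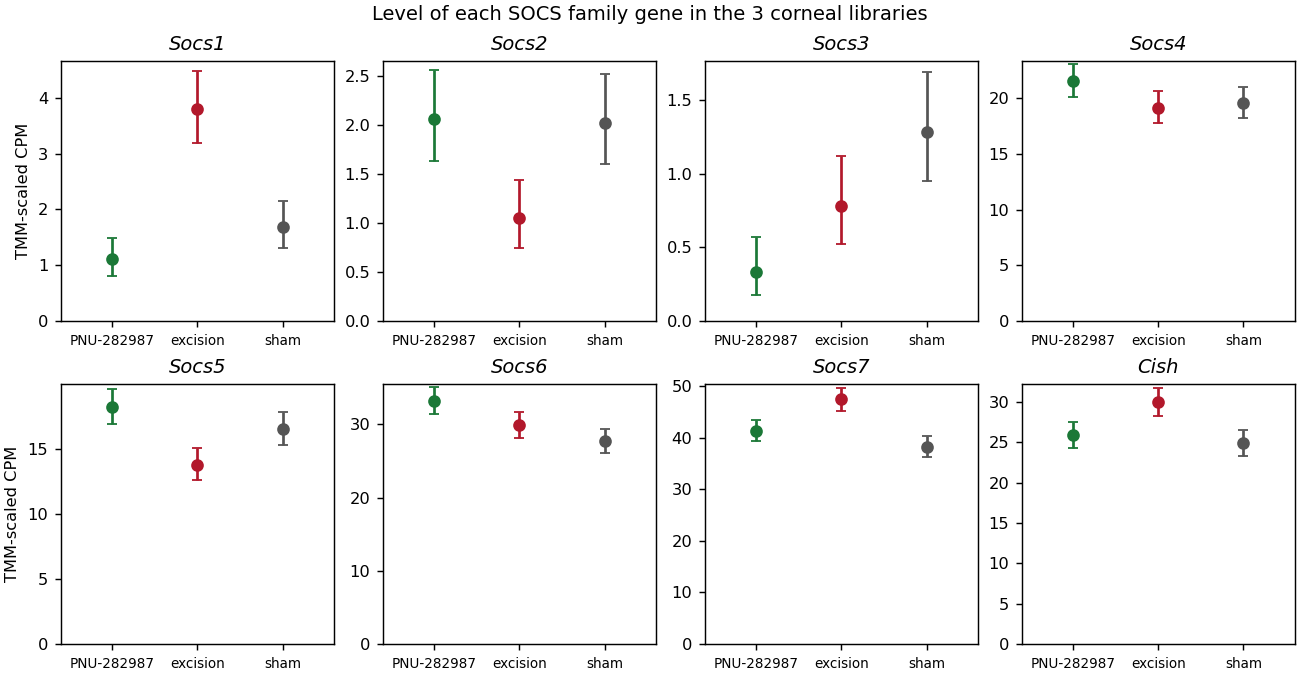
Level of each SOCS family gene (TMM-scaled CPM, each panel on its own scale from 0) in the PNU-282987, excision and sham libraries, with bars for the exact 95% Poisson counting interval of 1 library. Socs1 is highest in excision, at 3.80 CPM, Socs2 is lowest there, at 1.05 CPM, and Socs3 is lowest in PNU-282987, at 0.335 CPM.

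Socs1, the inhibitor of interferon-activated JAK kinases, was the only member called both higher in excision against sham and lower in PNU-282987 against excision. It had 43 counts in PNU-282987, 141 in excision and 66 in sham, or 1.11 CPM (0.801 to 1.49), 3.80 CPM (3.197 to 4.48) and 1.69 CPM (1.31 to 2.15). The excision interval did not overlap either of the others, whereas those of PNU-282987 and sham overlapped. Excision was 2.25-fold higher than sham (1.67 to 3.06), and PNU-282987 was 3.43-fold lower than excision (2.42 to 4.95). PNU-282987 was 1.53-fold lower than sham (1.02 to 2.30), which is under the 2-fold threshold.

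Because both counts of a pair come from 1 library, a ratio between genes within a library does not depend on the scaling. The pairs below were chosen with the values of the members known. Against Usp18, a deubiquitinase that restrains the type I interferon receptor, Socs1 was 4.37-fold lower in excision than in sham (3.14 to 6.05), at 0.05 and 0.219 Socs1 counts per Usp18 count. Usp18 itself had 337 counts in PNU-282987, 2822 in excision and 302 in sham, so the size of its excision difference (9.83-fold higher than sham, 8.73 to 11.1) was well above that of Socs1. Against Irf1, an interferon-induced transcription factor gene, Socs1 was 1.98-fold higher in excision than in sham (1.47 to 2.70), as Irf1 differed little, with 14434, 14606 and 13565 counts in PNU-282987, excision and sham.

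Summed transcripts of T and NK cells and of macrophages were highest in excision, as Socs1 was. Both sums were above sham in PNU-282987, where Socs1 was below it. Of 9 measured neutrophil markers, 7 were lower and none higher in excision against sham. Summed T and NK cell markers (11 in the table) were at 0.850 CPM in PNU-282987, 6.28 CPM in excision and 0.230 CPM in sham. Of the 4 measured, which reached the minimum only through excision, all 4 were higher in excision than in sham and lower in PNU-282987 than in excision. Gzma, a killer-cell protease, and Cd8a, a coreceptor of cytotoxic T cells, were the most abundant of them, at 2.21 CPM and 0.997 CPM in excision. In sham 7 of the 11 were at 0, among them Cd3d, Cd3g, Cd8a and Cd4, while Socs1 had 66 counts there. In PNU-282987 Cd3g, Klrd1 and Cd2 were at 0. Summed macrophage and monocyte markers were at 48.6 CPM in PNU-282987, 72.2 CPM in excision and 34.7 CPM in sham, with 8 of 14 measured members higher in excision than in sham and 8 lower in PNU-282987 than in excision. Cd68 and Lyz2 led this list, at 22.5 CPM and 15.2 CPM in excision, and none of its 15 genes was at 0 in any library. Summed vascular and lymphatic markers, led by Kdr and Tie1, were at 7.67 CPM, 10.6 CPM and 7.68 CPM in PNU-282987, excision and sham, with 2 of 7 measured higher and 1 lower in excision against sham. The part of these cells in the Socs1 difference was not tested.

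Socs3, the inhibitor induced by STAT3 that binds gp130 and its JAK kinases, had its lowest level in the agonist library. It had 13 counts in PNU-282987, 29 in excision and 50 in sham, or 0.335 CPM (0.178 to 0.572), 0.781 CPM (0.523 to 1.12) and 1.28 CPM (0.950 to 1.69). The interval of PNU-282987 did not reach that of sham, and the excision interval overlapped both. PNU-282987 was 3.82-fold lower than sham (2.05 to 7.67) and 2.33-fold lower than excision (1.18 to 4.89). Excision was 1.64-fold lower than sham (1.02 to 2.69), under the threshold.

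Socs1 and Socs3 parted between libraries. There were 3.31 Socs1 counts per Socs3 count in PNU-282987, 4.86 in excision and 1.32 in sham. The ratio was 3.68-fold higher in excision than in sham (2.07 to 6.59) and 2.51-fold higher in PNU-282987 than in sham (1.16 to 5.62). PNU-282987 and excision were not separated (quotient 0.680, 0.310 to 1.56). Stat3 itself was at 5574 counts in PNU-282987, 4849 in excision and 4577 in sham, and Socs3 per Stat3 count was 4.68-fold lower in PNU-282987 than in sham (2.503 to 9.41).

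Summed red blood cell transcripts ran in the same order as Socs3, though Alas2 among them did not. Their sum was 9.61 CPM in PNU-282987, 17.2 CPM in excision and 71.8 CPM in sham. Of 5 measured, 4 were lower in PNU-282987 than in sham, 3 were lower in PNU-282987 than in excision, excision was below sham for 4, and none was at 0. Hbb-bs, an adult β-globin gene, had 32, 224 and 1291 counts in PNU-282987, excision and sham, with reads possibly shared among globin copies, and Alas2, a haem synthesis enzyme of red cells, had 274, 214 and 399. Neutrophil markers were led by Ltf, which is also on the conjunctiva and gland list, and by S100a9. Their sum was 70.1 CPM in PNU-282987, 41.2 CPM in excision and 83.5 CPM in sham. Of 9 measured, 6 were lower in PNU-282987 than in sham (median log2 ratio -1.48), 7 were below sham in excision (median -2.13), and 2 were higher in PNU-282987 than in excision. Stromal markers, led by Dcn and Col1a1, summed to 1166 CPM in PNU-282987, 1140 CPM in excision and 1782 CPM in sham, with 1 of 13 lower in PNU-282987 than in sham and 6 of 13 below sham in excision. Conjunctiva and gland markers, led by Krt13 and Krt4, were highest in PNU-282987, where 11 of 14 were above sham. The part of blood, neutrophils, stroma or conjunctiva in the Socs3 difference was not tested.

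Socs2, which restrains growth hormone receptor signalling, was lowest in the excision library, just short of 2-fold. It had 80 counts in PNU-282987, 39 in excision and 79 in sham, or 2.06 CPM (1.63 to 2.56), 1.05 CPM (0.747 to 1.44) and 2.02 CPM (1.60 to 2.52). The excision interval lay below both of the others, which nearly coincided. Excision was 1.93-fold lower than sham (1.30 to 2.90), and PNU-282987 was 1.96-fold higher than excision (1.32 to 2.95). When scaled to total counts the excision difference was 2.03-fold and passed the threshold. PNU-282987 over sham was 1.02 (0.737 to 1.41).

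Lens and retina transcripts, and part of the corneal endothelium and stroma lists, were low in the same library as Socs2. Summed retina markers, among them Gnat1 and Rom1, were at 21.7 CPM in PNU-282987, 6.03 CPM in excision and 14.5 CPM in sham, and excision was below sham for 6 of 8 measured. Of 16 measured lens markers, led by Cryab and Cryaa, 15 were lower in excision against sham and 15 higher in PNU-282987 against excision. Corneal endothelium markers, among them Prdx6 and Tjp1, summed to 1618 CPM, 1255 CPM and 1763 CPM in PNU-282987, excision and sham, of which excision was below sham for 6 of 11 and above it for 1. Those 2 abundant genes were not among the 6, as Prdx6 was at 0.977 and Tjp1 at 1.35 times the sham level in excision. The 6 were Col8a1, Col8a2, Slc4a4, Slc4a11, Atp1b1 and Cdh2, named after their values were seen, of which Col8a2, a collagen of the endothelial basement membrane, had 7930 counts in PNU-282987, 2555 in excision and 12972 in sham. Of 13 stromal markers, 6 were lower in excision against sham and 4 higher in PNU-282987 against excision. None of the retina or endothelium markers was at 0, and 1, 3 and 0 of the lens markers were at 0 in PNU-282987, excision and sham. Their part in the Socs2 difference was not tested.

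**Figure D2:**
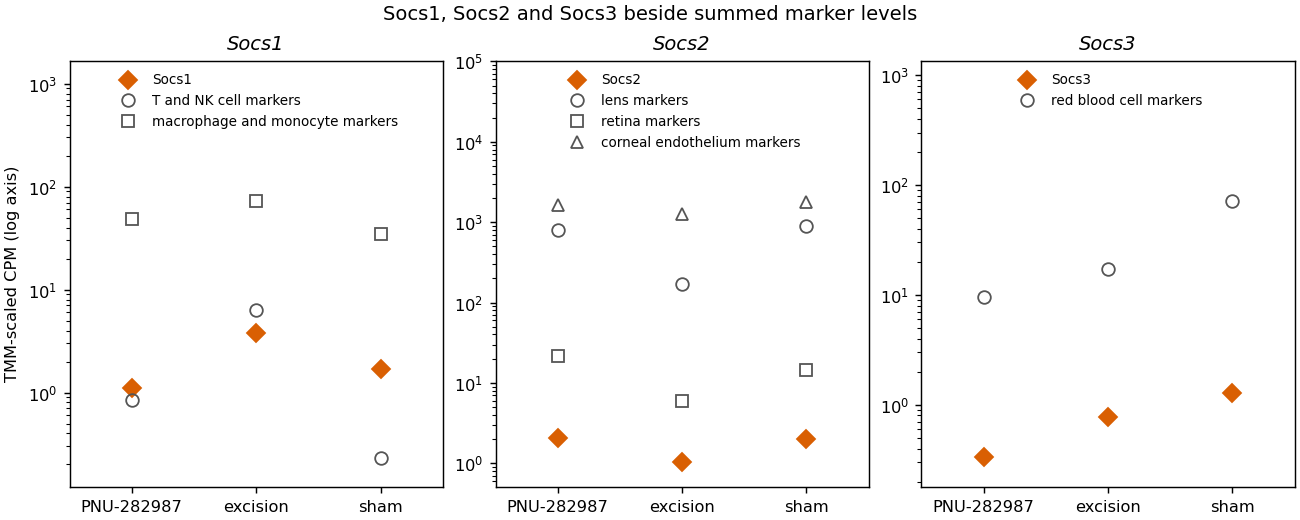
Socs1, Socs2 and Socs3 (filled diamonds) beside the summed level of marker lists that were highest or lowest in the same library (open symbols). Values are TMM-scaled CPM on a log axis in the PNU-282987, excision and sham libraries, 1 library each. The T and NK cell and macrophage sums are higher in PNU-282987 than in sham, where Socs1 is lower. T and NK cell markers peak in excision with Socs1, lens and retina markers are lowest in excision with Socs2, and red blood cell markers are lowest in PNU-282987 with Socs3.

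Cish, whose product competes for STAT5 docking sites on receptors, differed little. It had 1007 counts in PNU-282987, 1113 in excision and 971 in sham, or 25.9 CPM, 30.0 CPM and 24.9 CPM. Excision was 1.21-fold higher than sham (1.11 to 1.32) and PNU-282987 was 1.16-fold lower than excision (1.06 to 1.26), beyond counting error but far from 2-fold. PNU-282987 over sham was 1.04 (0.954 to 1.14). Cish and Socs2, both known STAT5 targets, did not move together: there were 12.6 Cish counts per Socs2 count in PNU-282987, 28.5 in excision and 12.3 in sham, a 2.32-fold higher ratio in excision than in sham (1.55 to 3.53). In GENCODE M21, 13.1% of the Cish exon bases lie over exons of the antisense gene Gm17041 and 2.82% over Gm17040, and since the strand setting is not given, reads of these genes cannot be told apart from those of Cish there. No exon overlap was found for the other 7 members.

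Socs7, which has been tied to insulin receptor substrates, was the most counted member and ran in the same order as Cish, with ratios of similar size. It had 1606 counts in PNU-282987, 1762 in excision and 1495 in sham. Excision over sham was 1.24 (1.16 to 1.33), and PNU-282987 over excision was 0.871 (0.814 to 0.933).

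Socs5, an inhibitor of EGF receptor and IL-4 receptor signalling, had 707 counts in PNU-282987, 511 in excision and 644 in sham. It was lowest in excision, at a ratio of 0.835 over sham (0.742 to 0.939), and PNU-282987 over excision was 1.32 (1.18 to 1.48). Socs4, its closest relative, had 838, 712 and 765 counts in the same order, with excision over sham at 0.979 (0.883 to 1.09) and PNU-282987 over excision at 1.13 (1.02 to 1.25). Socs6, which binds KIT and insulin receptor complexes, had 1288, 1111 and 1080 counts, with PNU-282987 over sham at 1.20 (1.11 to 1.30) and excision over sham at 1.08 (0.994 to 1.18). All 4 of Socs4 to Socs7 lay within 1.5-fold in each of the 3 comparisons.

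**Figure D3:**
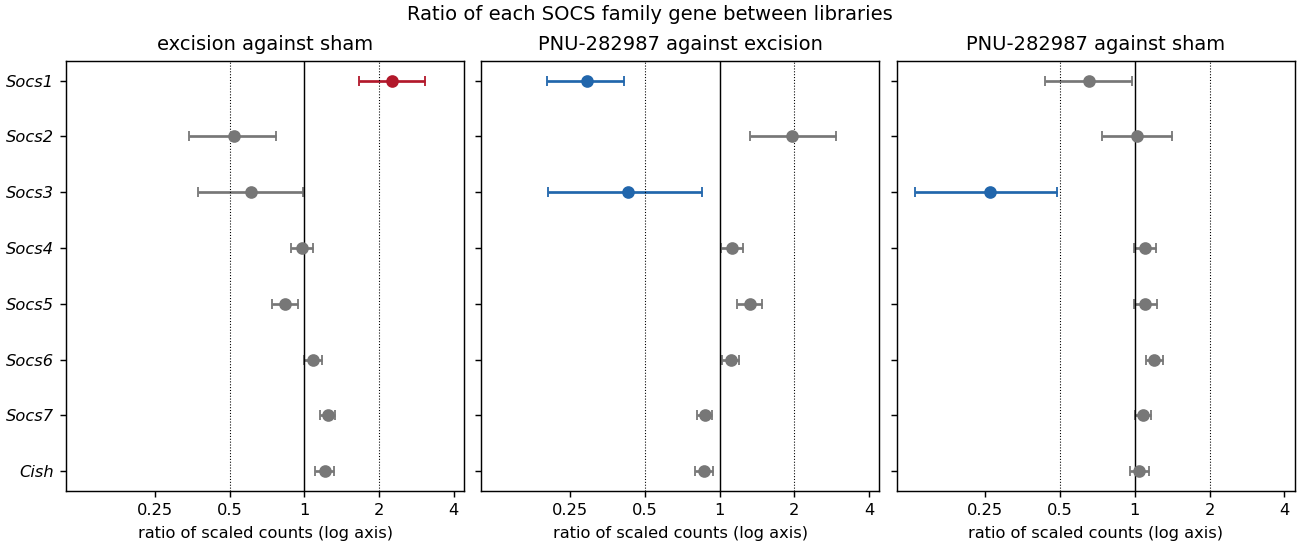
Ratio of scaled counts for each SOCS family gene in the 3 comparisons (log axis), with the exact conditional 95% counting interval of 2 libraries, a solid line at 1 and dotted lines at 2-fold. Red marks a call of higher and blue of lower. Socs1 passes in excision against sham (2.25) and in PNU-282987 against excision (0.292), Socs3 passes in both PNU-282987 comparisons (0.429 and 0.261), and the 5 well-expressed members stay near 1.

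In excision against sham, 1 of 8 members was called higher (Socs1) and none lower, where 4.01% of all measured genes were higher and 5.48% lower. In PNU-282987 against excision, 2 of 8 were called lower (Socs1 and Socs3) and none higher, where 5.62% of measured genes were lower and 3.90% higher. In PNU-282987 against sham, 1 of 8 was lower (Socs3) and none higher, where 4.96% of measured genes were lower and 2.58% higher. With 8 members, 1 or 2 calls are too few to set the family apart from these shares. The same shares are the background for the calls of every gene list in the text. The median log2 ratio of the members was 0.04, -0.03 and 0.09 in these 3 comparisons, beside medians over all measured genes of -0.0026, 0.0076 and 0.0003. The comparisons share libraries, so Socs1 in the first 2 and Socs3 in the last 2 are not separate observations.

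Upstream of the family, no kinase was called in any comparison. Among the STAT factors, Stat2, which carries type I and type III interferon signals, had 980 counts in PNU-282987, 3448 in excision and 1064 in sham. It was 3.41-fold higher in excision than in sham (3.18 to 3.66) and 3.68-fold lower in PNU-282987 than in excision (3.43 to 3.96). Jak1, a kinase that SOCS1 and SOCS3 bind, had 9259, 6723 and 7288 counts in the same order, and Jak2 had 2748, 2143 and 1973, all within 1.5-fold. None of the 6 interferon receptor genes was called in any comparison, with medians of -0.22, 0.28 and 0.04 (log2) for excision against sham, PNU-282987 against excision and PNU-282987 against sham.

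Genes listed as interferon-induced or as targets of STAT3 or STAT5 were set beside the SOCS genes. Of 18 measured interferon-induced effector genes, a list that also holds Stat2, 14 were higher in excision than in sham and none lower (median log2 ratio 1.75), and 13 were lower and 1 higher in PNU-282987 than in excision (median -1.49). Gbp6, a guanylate-binding GTPase, had 25 counts in PNU-282987, 478 in excision and 37 in sham. Gbp4, of the same family, was 7.74-fold higher in excision than in sham (6.96 to 8.62), Igtp, an immunity-related GTPase, was 7.002-fold higher (6.25 to 7.86), and the T cell chemokine gene Cxcl9 had 0, 29 and 1 counts in PNU-282987, excision and sham. Cxcl9 and Ciita (12, 25 and 6 counts in the same order) reached the count minimum only through excision, where they were highest. Both are counted among the 14 and the 13. In PNU-282987 against sham 1 of the 18 was higher, Icam1, an adhesion molecule for leukocytes (2.14-fold, 1.58 to 2.91), and none lower (median 0.02). Socs1, with log2 ratios of 1.17, -1.78 and -0.61 in the 3 comparisons, lay on the side of that list's median in the first 2.

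Of 19 measured STAT3 target genes, 1 was lower (5.48% of all measured genes) and none higher in excision against sham. In PNU-282987, 1 was higher (3.90%) and none lower than in excision, and 1 was higher (2.58%) and 1 lower (4.96%) than in sham. Their medians were 0.25, -0.20 and 0.12 (log2), where Socs3 was at -0.71, -1.22 and -1.94. Hp, the haemoglobin-binding protein haptoglobin, was the one that was lower, with 35 counts in PNU-282987, 39 in excision and 142 in sham. Icam1, which is also on the interferon list, was the one that was higher in the PNU-282987 comparisons (3.22-fold above excision, 2.26 to 4.68). Bcl3 and Junb, which like Socs3 are induced quickly by STAT3, were not called in any comparison. Bcl3 had 746, 642 and 648 counts in PNU-282987, excision and sham, and Socs3 per Bcl3 count was 4.43-fold lower in PNU-282987 than in sham (2.34 to 8.96). Junb had 8754, 11368 and 9711 counts in the same order. Socs3 per Junb count was 3.47-fold lower in PNU-282987 than in sham (1.85 to 6.96), but between PNU-282987 and excision the quotient of 0.582 had an interval that held 1 (0.278 to 1.16).

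Of 8 measured STAT5 target genes, 1 was higher (4.01% of all measured genes) and 1 lower (5.48%) in excision against sham. None was called in PNU-282987 against excision, and 1 was lower in PNU-282987 than in sham (4.96%). Ccnd2, a cyclin of the G1 phase, was the higher one, with 3623 counts in PNU-282987, 5851 in excision and 2078 in sham (excision 2.96-fold higher than sham, 2.82 to 3.12). Igf1, the growth factor through which growth hormone acts, was the lower one, with 33, 35 and 112 counts in the same order. The medians of 0.29, -0.18 and 0.12 (log2) were close to the values of Cish, 0.27, -0.21 and 0.06. The closeness was not particular to STAT5 targets, as the STAT3 list had medians of 0.25, -0.20 and 0.12. Both lists hold Pim1, Ccnd1 and Bcl2l1. Socs7 had values of 0.31, -0.20 and 0.11. Interferon-stimulated genes, an overlapping theme, had 24 of 27 measured members higher in excision than in sham and 23 lower in PNU-282987 than in excision, with 7 lower in PNU-282987 than in sham.

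**Figure D4:**
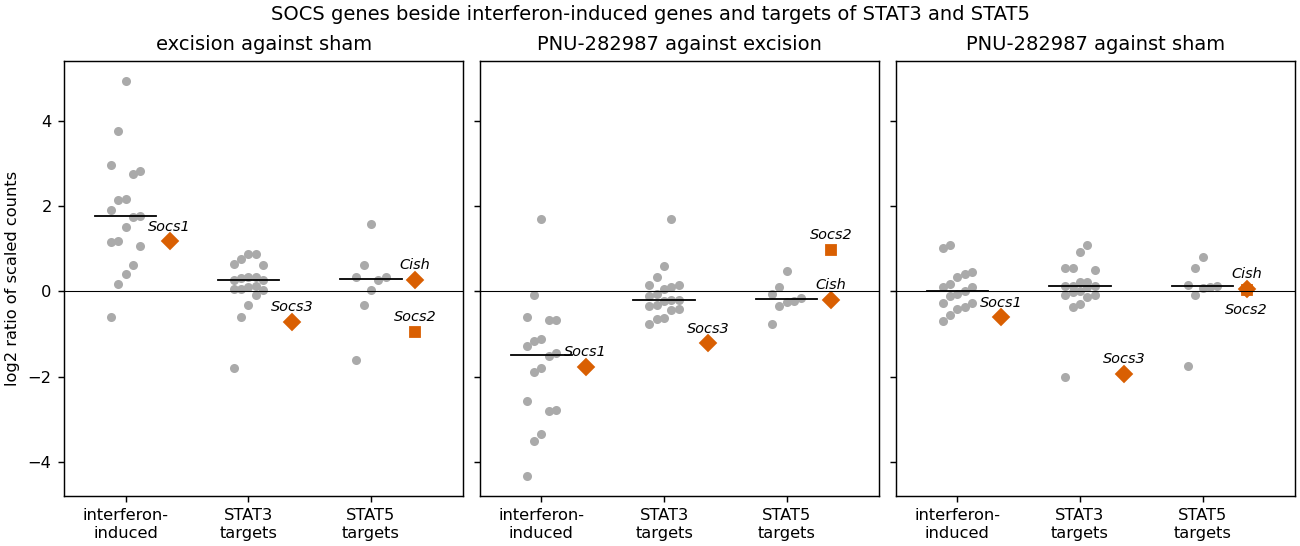
log2 ratio of scaled counts of measured interferon-induced effector genes and of STAT3 and STAT5 target genes (grey points, black line at their median, genes at 0 in 1 library drawn at a floor of 3 counts) with Socs1, Socs3, Cish and Socs2 beside them in orange, for the 3 comparisons. Socs1 lies on the same side of 0 as the interferon-induced median in the first 2 comparisons (1.17 and -1.78 beside 1.75 and -1.49). In PNU-282987 against sham it lies below that median (-0.61 beside 0.02). Socs3 lies below the STAT3 median in all 3.

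Among the other inhibitors of the pathway, 2 of 15 were higher in excision than in sham, the same 2 were lower in PNU-282987 than in excision, and 1 was higher in PNU-282987 than in sham. These were Usp18, above, and Ptprc, the leukocyte phosphatase CD45, with 17 counts in PNU-282987, 36 in excision and 6 in sham. Ptprc reached the count minimum only through excision, where it was highest. The PIAS genes and the phosphatase genes Ptpn1, Ptpn2, Ptpn6 and Ptpn11 were not called, with list medians of 0.13, -0.14 and 0.08 (log2). The 9 genes of the elongin, cullin and neddylation machinery that serves the SOCS box were not called in any comparison. Cul5, the cullin that SOCS proteins recruit, had 958, 681 and 936 counts in PNU-282987, excision and sham, and Elob, which encodes elongin B, had 4292, 5116 and 5017.

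Receptors that SOCS proteins act on, with their ligands, were read against the 3.90% of measured genes called higher and the 5.62% called lower in PNU-282987 against excision, where most of their calls fell. Of 10 measured gp130 family genes, none was called in excision against sham. In PNU-282987 against excision, Cntfr, a receptor chain for ciliary neurotrophic factor, was 3.01-fold higher (2.15 to 4.27; 148, 47 and 60 counts in PNU-282987, excision and sham) and the cytokine gene Il11 was 2.42-fold lower (1.31 to 4.66; 16, 37 and 31 counts). Cntfr was also the one called in PNU-282987 against sham. Of 9 measured genes of the γ-chain, IL-4 and STAT5-linked receptors, Il2rg, the shared γ chain, was higher in excision than in sham (4, 22 and 9 counts in PNU-282987, excision and sham), though it reached the minimum of 20 counts only through excision. In PNU-282987 against excision, 4 of the 9 were called: Il2rg, the IL-15 receptor gene Il15ra (54, 129 and 114 counts) and the GM-CSF receptor gene Csf2ra (333, 658 and 439), which were lower, and the prolactin receptor gene Prlr (31, 13 and 16), which was higher. Prlr reached the minimum only through PNU-282987. Il15ra was also lower in PNU-282987 than in sham. Ghr, the growth hormone receptor on which SOCS2 acts, was not called, at 2624, 2487 and 3018 counts.

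Of 10 measured insulin, IGF, EGF and KIT receptor and adaptor genes, on which SOCS4 to SOCS7 act, Irs1 was the one that was called. This insulin receptor substrate had 26 counts in PNU-282987, 24 in excision and 71 in sham, and was 2.81-fold lower in excision (1.75 to 4.67) and 2.72-fold lower in PNU-282987 (1.71 to 4.43) than in sham. Egfr had 4087, 4972 and 4289 counts and Kit had 3706, 4225 and 4062.

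The genes with the most similar pattern were found by the distance between log2 CPM values centred over the 3 libraries, among 11022 genes with at least 100 counts in 1 library, for the members called in a comparison. Nearest to Socs1 were Pced1b (88, 283 and 137 counts in PNU-282987, excision and sham), at a distance of 0.0345, then LOC118568270 (71, 219 and 107 counts), then the membrane mucin gene Muc21 (15894, 55543 and 24840 counts). Nearest to Socs3 were Sapcd2 (43, 86 and 159 counts) at 0.113, the mitotic kinesin gene Kif14 (53, 103 and 170 counts) at 0.193 and the growth factor gene Bmp6 (33, 68 and 103 counts) at 0.215. With 3 libraries, such closeness describes 3 values only.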

How the data were processed

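Corneal RNA was sequenced in 3 libraries, 1 per group. The authors deposited whole-number counts of reads per gene. HTSeq and R 3.2.0 are named per the submitters' processing notes. The sources used here do not give the aligner, build, annotation or strand setting. Of 21760 genes, 0 rows named no gene. Counts were scaled with TMM factors (edgeR 4.0.16, R 4.3.3), which were 0.980 for PNU-282987, 0.985 for excision and 1.04 for sham. Ratios used no added count, and a count of 0 was set to a floor of 3 counts per library (0.0773, 0.0808 and 0.0768 CPM in PNU-282987, excision and sham). Intervals were exact Poisson for levels, exact conditional binomial for ratios and exact conditional odds-ratio intervals for ratios within libraries, all at 95%, and cover counting error only, since reads are not independent molecules. The scheme was run on simulated counts that held Poisson counting error only, which its intervals assume. That run could not cover the spread between animals.

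All 8 members were described. For pathway lists, at most 4 called members with the largest ratio were named, with other listed genes named after their values were seen. For cell type lists the 2 most abundant members were named. A few listed genes were left out of the lists and are not reported here. Members and lists were chosen with earlier results of these data known. Alternatives covered scaling, the count minimum, the fold threshold, an added count and the removal of other-tissue markers. Python 3.11.15, NumPy 2.4.6, pandas 2.3.3, SciPy 1.17.1 and matplotlib 3.10.9 were used.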

Additional observations from a re-analysis of the deposited data

How the results depend on the processing

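Over 8 alternatives, none of the 186 member ratios that could be recomputed left its main counting interval. The count minimum and the fold threshold do not enter a ratio, so under those settings it could not move. The 2 ratios that crossed 1 were uncalled, in PNU-282987 against sham scaled to total counts (Socs2 at 0.964 and Cish at 0.987), and 5 calls differed. Socs1 was called in excision against sham and in PNU-282987 against excision under all 8. Scaled to total counts, the members called in excision against sham numbered 2 in place of 1, through Socs2. With a 1.5-fold threshold they numbered 3 in excision against sham (Socs1 with Socs2 and Socs3), 3 in PNU-282987 against excision in place of 2 (Socs2 being the one called higher) and 2 in PNU-282987 against sham (Socs3 with Socs1). With at least 100 counts in a library, Socs2 and Socs3 are no longer measured, which leaves 1 in PNU-282987 against excision and 0 in PNU-282987 against sham. Over all genes, the 1345, 1350 and 1069 called in excision against sham, PNU-282987 against excision and PNU-282987 against sham became 2025, 2033 and 1729 with no count minimum, 550, 511 and 326 with at least 100 counts, and 2447, 2663 and 2088 with a 1.5-fold threshold. The counts of Socs3 (13 to 50) and Socs2 (39 to 80) limit their precision. With 1 library per group, no library could be left out and no paired analysis was possible.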

Other observations

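Other proteins that carry a SOCS box, the motif that links the family to elongins and cullins, were mostly level. Of 18 measured, 1 was lower (5.48% of all measured genes) and none higher in excision than in sham. In PNU-282987, 1 was higher (3.90%) and none lower than in excision, and 2 were higher (2.58%) and 1 lower (4.96%) than in sham. Spsb1, a regulator of inducible nitric oxide synthase, had 82 counts in PNU-282987, 38 in excision and 30 in sham (PNU-282987 2.75-fold higher than sham, 1.79 to 4.33, and 2.06-fold higher than excision, 1.39 to 3.12). Spsb4, its relative, had 2, 0 and 23 counts in the same order and reached the minimum only through sham. With its 0 set to the floor of 3 counts it was 7.29-fold lower in excision than in sham. The lower end of the counting interval was 5.46-fold. Asb2, of the ankyrin-repeat SOCS-box family, had 32, 18 and 15 counts and was 2.15-fold higher in PNU-282987 than in sham (1.13 to 4.26), though it reached the minimum only through PNU-282987. Vhl, the hypoxia-linked ubiquitin ligase subunit whose box binds cullin 2, had 987, 710 and 962 counts and was not called.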
